A study of Mus musculus with 25 samples.

Results

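The comparison asks what the stronger of 2 ethanol regimens did to the transcripts of the wild-type duodenum. It sets 4 libraries labelled WT_Full against 4 labelled WT_Con, which are 8 of the 25 libraries in the series. The members were taken by their labels, but they, the comparison and the gene lists were chosen with earlier results of these data known. All mice were male, 8 weeks old at the start and kept on their diet for 8 weeks. The mice used here were C57BL/6N; the series also holds Aldh2KI mice. WT_Con mice (n = 4) had the control diet. WT_Full mice (n = 4) had a diet with 5% ethanol and 4 g/kg ethanol by gavage 2 times per week. WT_Half mice (n = 7), used here only to show where an intermediate regimen lay, had 2.5% ethanol and 2 g/kg. The final dose before collection is given as 5 g/kg ethanol, and the interval as 9 h. The labels state neither a gavage for WT_Con nor the time of day of collection, so ethanol, the gavage and the hour of collection cannot be told apart. The labels do not say that libraries come from separate mice, so p-values measure the spread between libraries. Totals ran from 24.6 to 44.8 M counts (M, mega) per library.

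The duodenum is the first segment of the small intestine, where absorptive enterocytes meet swallowed ethanol at high concentration. Its epithelium is renewed from crypt stem cells, is patrolled by intraepithelial T cells, and is protected by Paneth cells, which secrete defensins at the crypt base. Cells that lack amino acids or carry damaged mitochondria phosphorylate the initiation factor eIF2 and translate ATF4 and ATF5, transcription factors of the integrated stress response whose targets include serine synthesis, asparagine synthetase and tRNA synthetases. Heat shock factor drives chaperones through heat shock elements, and the circadian clock drives its output genes through E-boxes.

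The tissue label was checked against epithelial genes. The epithelial adhesion gene Epcam was counted at 1336, 1199, 1142 and 1187 counts per M (CPM) in WT_Con replicates 1 to 4 and at 1408, 1466, 1478 and 1579 CPM in WT_Full replicates 1 to 4, and the brush border gene Vil1 lay at 1731 CPM or more in every control library and at 1538 CPM or more in every WT_Full library. Both genes mark intestinal epithelium, and all 8 libraries held them at high levels.

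Some libraries stood apart from their group, and this touches every result below. Muc6, a mucin of the Brunner glands of the duodenal wall, had 3397, 11.9, 21350 and 12440 CPM in WT_Con replicates 1 to 4, against 2631, 15.4, 17.9 and 6.73 CPM in WT_Full. Ctrb1, a chymotrypsinogen of pancreatic acinar cells, had 477, 1.03, 404 and 52.0 CPM in WT_Con and 0.727 to 2.28 CPM in WT_Full. The stomach gene Gkn2 reached 6722 CPM in WT_Con replicate 3, 12.9 CPM in replicate 4, and 0 to 1.82 CPM in the other 6 libraries. WT_Con replicate 2 was thus the control library nearest to WT_Full replicates 2 to 4 in these neighbouring tissues. For Muc6, WT_Full replicate 1 (2631 CPM) lay nearest to WT_Con replicate 1 (3397 CPM). WT_Full replicate 4 lay nearer to a control than to its own group, with a Spearman correlation across genes of 0.975 with WT_Con replicate 2 and of 0.945 to 0.949 with the other WT_Full libraries. The reverse also held, since WT_Con replicate 2 matched WT_Full replicate 4 better than any control (0.969 at most). Whether these 2 libraries carry the right labels, or differ in exposure, was not tested, and results that drop the former or rest on the latter share this doubt. Results below are therefore also given without WT_Full replicate 4, against WT_Con replicate 2 alone, or with a covariate for Brunner gland content. The part of these differences in content in each result was not tested.

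**Figure D1:**
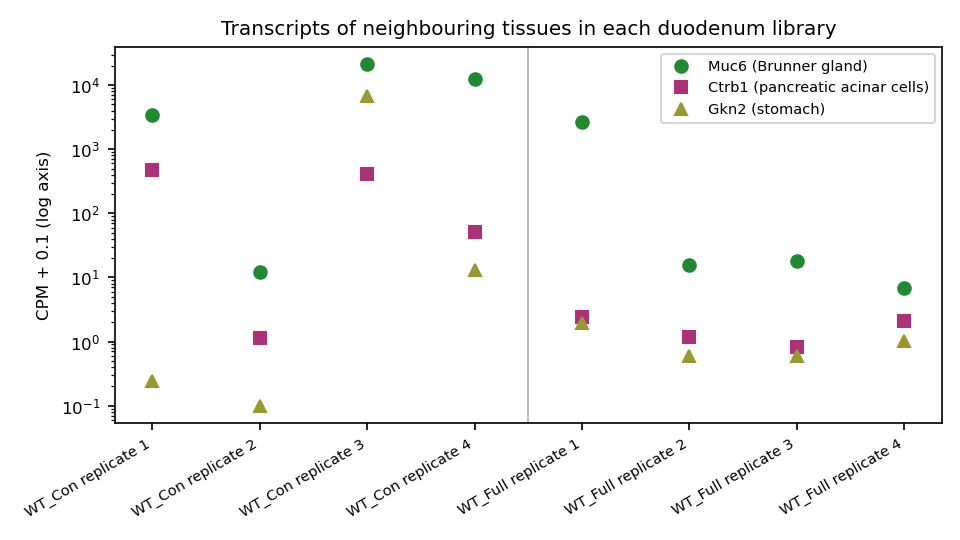
Level of a Brunner gland gene (Muc6), a pancreatic acinar gene (Ctrb1) and a stomach gene (Gkn2) in each of the 8 libraries, as CPM + 0.1 on a log axis, 1 point per gene and library. WT_Con replicates 1, 3 and 4 hold 3397 to 21350 CPM of Muc6, while WT_Con replicate 2 holds 11.9 CPM; the highest Gkn2 is in WT_Con replicate 3, at 6722 CPM.

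With edgeR's quasi-likelihood test and a Benjamini-Hochberg adjusted p under 0.05, 1 of 16882 genes tested was higher in WT_Full (0.00592%) and 0 were lower (0%), while 3003 had an unadjusted p under 0.05. Without WT_Full replicate 4 the same test called 1211 genes higher (7.15%) and 858 lower (5.06%) of 16947. DESeq2 on all 8 libraries called 505 higher (2.98%) and 431 lower (2.55%) of 16920. Because the number of calls turned on 1 library and on the tool, genes are also described by overlap. All 4 WT_Full libraries lay above all 4 WT_Con libraries for 712 genes (4.22%) and below them for 638 genes (3.78%), and these shares are the background for the list counts below. Leaving out WT_Con replicate 3 raised them to 1116 (6.61%) and 991 (5.87%), and leaving out WT_Full replicate 4 to 2310 (13.7%) and 2257 (13.4%). The median log2 fold change over all genes tested was -0.000722, and 49.9% of genes had a positive and 50.1% a negative value.

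The gene that passed was Atf5, which encodes a transcription factor of the integrated and mitochondrial stress responses (ENSMUSG00000038539, GRCm38 chromosome 7, 44812256 to 44816658, minus strand). Atf5 had 26.9, 28.9, 29.5 and 30.8 CPM in WT_Con and 88.1, 71.4, 84.0 and 78.4 CPM in WT_Full. The groups were far apart, and WT_Full replicate 4 was as high as the rest of its group. Atf5 rose by 1.48 ± 0.13 (log2 fold change ± standard error, SE; adjusted p = 0.0108), from 29.0 ± 1.63 to 80.5 ± 7.21 CPM (mean ± SD, n = 4 each). Its log2 fold change stayed between 1.41 and 1.55 in all alternatives tried, and was 1.49 with WT_Con replicate 2 as the 1 control. Its adjusted p, however, moved past 0.05 without WT_Con replicate 1 (0.0932), replicate 3 (0.0627) or replicate 4 (0.0944). It also did so without WT_Full replicate 1 (0.0668) or replicate 3 (0.0712). The same held with the Brunner gland covariate (0.0749) and with a block for the replicate number (0.136). In WT_Half the Atf5 level ran from 51.8 to 120 CPM with a median of 86.4, so WT_Full did not lie above the milder regimen.

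Among the genes with the next smallest p on the higher side, several act at the epithelial surface or in metabolism. Each had all 4 WT_Full libraries above all 4 controls, a description only, since choosing by p in these libraries favours it. Anxa13, an annexin of the intestinal epithelium, had 254, 322, 221 and 314 CPM in WT_Con and 656, 829, 653 and 726 CPM in WT_Full (log2 fold change 1.37 ± 0.18, adjusted p = 0.0575). Guca2a, which encodes guanylin, a peptide that activates guanylate cyclase C to drive fluid secretion, had 13.7, 13.8, 9.29 and 9.43 CPM against 44.8, 48.2, 51.9 and 24.4 CPM (1.88 ± 0.27). Ddah1, which breaks down asymmetric dimethylarginine, an inhibitor of nitric oxide synthase, had 1.56, 1.30, 2.03 and 2.32 CPM against 18.9, 17.6, 22.6 and 3.75 CPM (3.13 ± 0.51). For Guca2a and Ddah1, WT_Full replicate 4 was the lowest of its group, while for Anxa13 it was not.

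Suv39h1, a histone H3 lysine methyltransferase, had 9.32 to 15.1 CPM in WT_Con and 28.7 to 36.7 CPM in WT_Full. Cyba, a subunit of the superoxide-producing NADPH oxidases, had 42.0 to 67.7 CPM against 89.8 to 136 CPM. Ttc22, Mfsd13a and Fgf11 had smaller log2 differences of 0.90, 1.08 and 0.92. Gml, a gene of the Ly6 family on chromosome 15, had 2.75, 1.69, 3.32 and 2.41 CPM against 16.4, 34.7, 35.4 and 5.36 CPM. The adjusted p of the 11 higher genes after Atf5 ran from 0.0575 to 0.103, so none passed. All passed without WT_Full replicate 4 (0.00313 to 0.0137), in a fit that called 7.15% of all genes higher. The 11 genes were chosen by p in a fit that shares these libraries, so this is not a separate result.

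**Figure D2:**
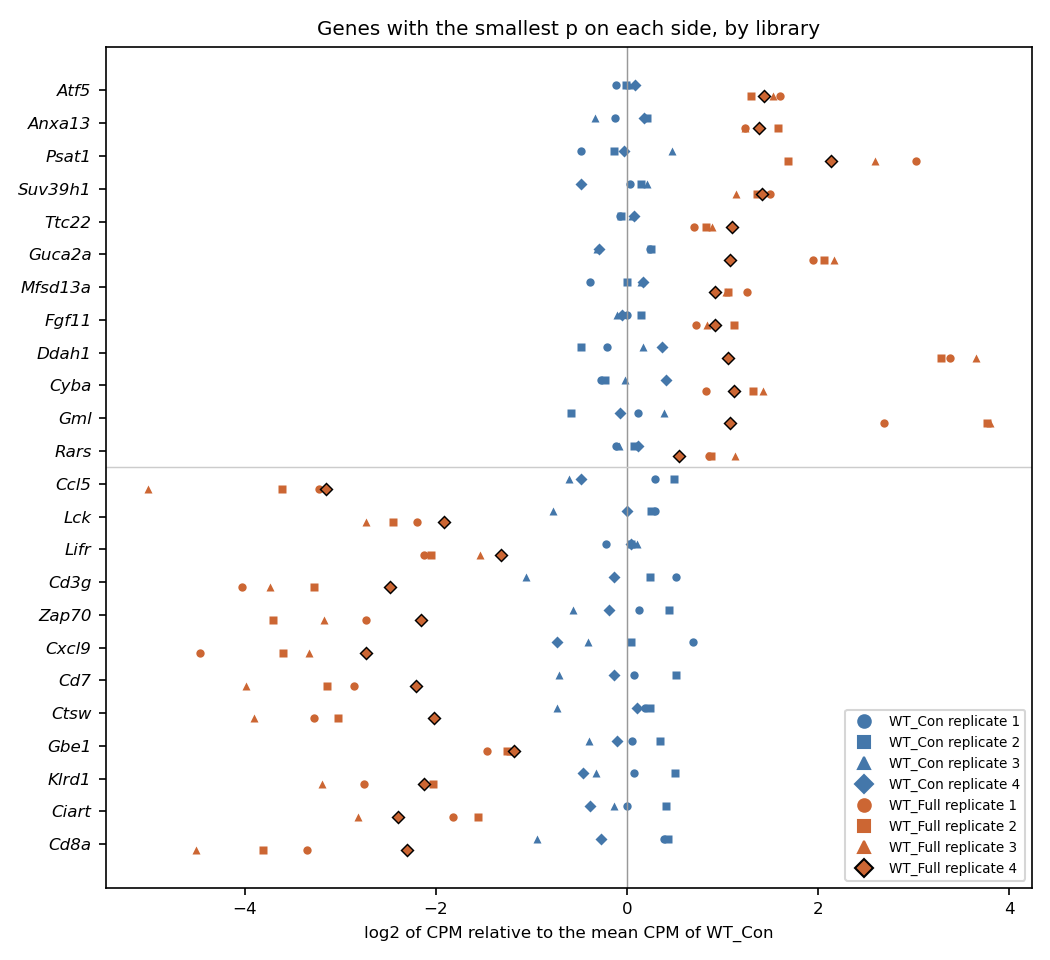
log2 of the CPM of each gene in each library relative to the mean CPM of WT_Con, for the 12 genes with the smallest p on the higher side (top) and the 12 on the lower side (bottom); blue marks WT_Con, orange WT_Full, shapes the replicates, and WT_Full replicate 4 has a black edge. Orange and blue points do not overlap for any of the 24 genes. The genes were chosen by p in these same libraries, which favours groups without overlap, so this is a description. WT_Full replicate 4 is the WT_Full library nearest to the controls for 15 of the 24 genes.

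Genes of serine synthesis separated the groups. In the list for serine, asparagine and mitochondrial one-carbon synthesis, 12 of 17 genes had a positive log2 fold change with a list median of 0.54, and the groups of 4 genes did not overlap, all with WT_Full higher (4 of 17, against 4.22% of all genes). These were the 3 enzymes of serine synthesis from 3-phosphoglycerate, Phgdh, Psat1 and Psph, and the mitochondrial serine hydroxymethyltransferase Shmt2, which passes a carbon from serine to folate. Psat1 had 4.97, 6.31, 9.61 and 6.76 CPM in WT_Con and 56.3, 22.2, 41.7 and 30.4 CPM in WT_Full (log2 fold change 2.46 ± 0.32, adjusted p = 0.0575). Phgdh had 9.31, 12.1, 22.6 and 16.1 CPM against 87.1, 32.1, 62.8 and 33.6 CPM (1.86 ± 0.39, adjusted p = 0.129). Shmt2 had 23.8, 32.2, 32.5 and 28.9 CPM against 104, 47.0, 91.4 and 49.0 CPM (1.32 ± 0.28, adjusted p = 0.129). In these 3 genes WT_Full replicates 1 and 3 were the high libraries, and replicates 2 and 4 were closer to the controls. None of the list passed over all genes, and without WT_Full replicate 4 there were 6 higher and 1 lower (Aldh1l1) calls among the 17, in a fit that called 7.15% of all genes higher and 5.06% lower.

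The list of integrated stress response targets as a whole was divided. Of 25 genes tested, 13 had a positive and 12 a negative log2 fold change, and the list median was 0.00. Beside Atf5, Eif4ebp1, an inhibitor of cap-dependent translation, had 20.2, 20.2, 33.8 and 27.5 CPM in WT_Con and 62.6, 51.5, 96.5 and 40 CPM in WT_Full (1.31 ± 0.29, adjusted p = 0.141). Ddit4, which restrains mTORC1, had 25.8 to 37.8 CPM against 37.4 to 89.7 CPM, and its groups overlapped by a small margin. Eif2ak4, which encodes the amino acid-sensing kinase GCN2, was the 1 list member with all WT_Full libraries lower, near the 3.78% of all genes. It was named for that after its values were seen. The count of calls without WT_Full replicate 4 was 3 of 25 higher (Atf5, Eif4ebp1 and Ddit4) and 0 lower, not far from the background of 7.15% of all genes higher.

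The cytosolic aminoacyl-tRNA synthetases, which charge tRNAs with amino acids, lay in 1 direction: 20 of 20 genes had a positive log2 fold change, with a median of 0.53 and a range of 0.06 to 0.88. Of these, 3 (Rars, Nars and Lars) had groups that did not overlap, against 4.22% of all genes higher. Rars, for arginine, had 64.1, 73.1, 65.7 and 75.3 CPM in WT_Con and 126, 128, 153 and 101.4 CPM in WT_Full (0.88 ± 0.15, adjusted p = 0.103). Nars, for asparagine, had 107, 206, 210 and 183 CPM against 348, 232, 371 and 290 CPM (0.83 ± 0.24). Hars, for histidine, had 41.6 to 53.9 CPM against 50.6 to 91.4 CPM, so its groups overlapped through WT_Full replicate 4. No synthetase passed over all 8 libraries, and 4 passed without WT_Full replicate 4 (Rars, Hars, Lars and Farsb), against 7.15% of all genes called higher in that fit.

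Ribosomal protein genes lay higher in WT_Full replicates 1 to 3, for both the mitochondrial and the cytosolic ribosome. Of 77 mitochondrial ribosomal protein genes, 76 had a positive log2 fold change, all but Mrpl48, and the list median was 0.52. Groups did not overlap for 15 of them, all higher in WT_Full, against 4.22% of all genes. Mrps6, a small-subunit protein, had 6.85, 7.37, 7.59 and 6.79 CPM in WT_Con and 24.8, 36.3, 39.0 and 10.98 CPM in WT_Full (1.97 ± 0.35, adjusted p = 0.103). Mrpl35 had 20.3, 20.2, 16.7 and 18.1 CPM against 39.8, 39.9, 36.9 and 24.4 CPM (0.91 ± 0.19), and Mrps26 had 34.1 to 37.6 CPM against 43.1 to 72.8 CPM. In each of the 3, WT_Full replicate 4 was the lowest of its group and still above every control.

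For the cytosolic ribosome, 78 of 78 genes had a positive log2 fold change with a median of 0.52, but no gene had groups without overlap. Rplp2, of the ribosomal stalk, had 231, 172, 180 and 203 CPM in WT_Con and 390, 600, 372 and 195 CPM in WT_Full, and Rps28 had 98.4 to 126 CPM against 342, 248 and 198 CPM in WT_Full replicates 2, 1 and 3 and 108 CPM in replicate 4. The mean log2 CPM of the cytosolic list was 7.59 to 7.76 in WT_Con, 8.21 to 8.46 in WT_Full replicates 1 to 3 and 7.53 in WT_Full replicate 4, the lowest of the 8. The mitochondrial list had 4.86 to 4.97 in WT_Con, 5.52 to 5.63 in WT_Full replicates 1 to 3 and 4.94 in replicate 4. Leaving it out, 53 mitochondrial and 54 cytosolic ribosomal protein genes passed, all higher, against 7.15% of all genes. Many ribosomal protein genes have near-identical processed copies in the genome, so the counts of single members (Rpl13a, at 8.54 to 10.8 CPM in WT_Con, for example) are uncertain.

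Chaperones of the mitochondrial matrix and of the cytosol lay higher in WT_Full replicates 1 to 3 and close to control levels in replicate 4. Hspd1, the matrix chaperonin HSP60, had 203, 280, 248 and 217 CPM in WT_Con and 664, 481, 647 and 260 CPM in WT_Full (1.13 ± 0.29, adjusted p = 0.159). Its co-chaperonin Hspe1 had 117, 112, 89.6 and 97.6 CPM against 309, 300, 260 and 102 CPM (1.24 ± 0.32, adjusted p = 0.159), and the import channel gene Tomm40 had 49.8 to 62.5 CPM against 158, 117, 120 and 59.5 CPM. Of 20 genes for mitochondrial chaperones and proteases, 15 had a positive log2 fold change (median 0.48). The groups of 2 (Timm17a and Phb) did not overlap, against 4.22% of all genes higher. Without WT_Full replicate 4, 10 passed as higher and 2, the protease genes Spg7 and Clpx, as lower, where 7.15% of all genes passed as higher and 5.06% as lower.

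Of 18 cytosolic heat shock protein genes, 16 had a positive log2 fold change with a median of 0.51. Hsp90aa1, the inducible HSP90, had 196, 201, 277 and 199 CPM in WT_Con and 509, 557, 582 and 232 CPM in WT_Full (1.12 ± 0.29, adjusted p = 0.159). Stip1, the adaptor between HSP70 and HSP90, had 67.1 to 94.7 CPM against 205, 152, 191 and 83.7 CPM. Chordc1, an HSP90 co-chaperone, had 37.9, 41.9, 49.8 and 37.2 CPM against 59.3, 58.3, 66.7 and 51.2 CPM. It was with Hspa4l 1 of the 2 members whose groups did not overlap, against 4.22% of all genes higher. With that library left out, 7 of the 18 passed, all higher (background 7.15% of all genes). The endoplasmic reticulum chaperones did not move together: 14 of 22 had a positive log2 fold change, and Dnajb9, a target of the IRE1 branch of the unfolded protein response, was lower, with 113, 77.4, 87.0 and 81.8 CPM in WT_Con and 41.9, 37.7, 39.2 and 61.7 CPM in WT_Full (-0.99 ± 0.20, adjusted p = 0.129).

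The promoters of 2 of these chaperones are shown because they hold the element that heat shock factor binds; the windows of Stip1 and Tomm40 held no match. Both are from RefSeq (GRCm38.p6) and run from 250 bases before to 50 bases after the start, written 5′ to 3′ on the strand of the gene, with matches to the heat shock element in capitals. The element was searched on both strands as GAA, any 2 bases, TTC, any 2 bases and GAA. It was found in 0.603% of 32851 mouse promoter windows of this length. The window of Chordc1 is chr9:18292017-18292316 on the plus strand, with 3 overlapping matches whose first bases lie at -4, 2 and 7 from the start, and the window of Hspe1 is chr1:55087898-55088197 on the plus strand, with 2 overlapping matches at -89 and -84. Hspd1 is read from the opposite strand, and 1 of its 2 listed windows overlaps that of Hspe1 and holds 2 matches, while the other holds none.
Chordc1: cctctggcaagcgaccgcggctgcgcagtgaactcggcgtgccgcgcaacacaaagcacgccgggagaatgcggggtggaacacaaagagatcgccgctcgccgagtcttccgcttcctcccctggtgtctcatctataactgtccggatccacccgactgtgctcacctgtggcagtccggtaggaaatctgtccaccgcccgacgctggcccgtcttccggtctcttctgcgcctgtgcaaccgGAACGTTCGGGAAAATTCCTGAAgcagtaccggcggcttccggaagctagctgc
Hspe1: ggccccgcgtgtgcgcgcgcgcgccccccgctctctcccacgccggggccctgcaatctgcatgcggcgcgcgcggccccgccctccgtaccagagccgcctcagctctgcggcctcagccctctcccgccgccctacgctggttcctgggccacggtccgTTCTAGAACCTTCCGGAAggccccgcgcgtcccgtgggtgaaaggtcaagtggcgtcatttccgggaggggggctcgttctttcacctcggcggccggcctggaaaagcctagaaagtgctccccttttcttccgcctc

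The lower side was led by genes of intraepithelial T and NK cells. All 20 tested genes of this list had a negative log2 fold change, with a median of -2.52, and for 17 of them every WT_Full library lay below every control, against 3.78% of all genes. The 3 with overlap were Cd244a, Cd2 and Thy1. In bulk tissue, fewer cells of a type and less RNA per cell cannot be told apart. Averaged over the list, log2 CPM was 2.97, 2.88, 1.95 and 2.53 in WT_Con and 0.16, -0.50, -0.18 and 0.86 in WT_Full, so WT_Full replicate 4 was the highest of its group and still well below the lowest control.

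Ccl5, a chemokine made by T and NK cells, had 26.5, 30.3, 14.2 and 15.5 CPM in WT_Con and 2.31, 1.78, 0.671 and 2.44 CPM in WT_Full (-3.58 ± 0.44, adjusted p = 0.0575). Cd8a, the co-receptor of cytotoxic and most intraepithelial T cells, had 28.3, 29.2, 11.2 and 17.9 CPM against 2.13, 1.54, 0.951 and 4.38 CPM (-3.27 ± 0.50, adjusted p = 0.0814). Cd3g, a chain of the T cell receptor complex, had 15.9, 13.2, 5.38 and 10.2 CPM against 0.683, 1.16, 0.839 and 2.01 CPM (-3.25 ± 0.45, adjusted p = 0.0580). All 3 separated the groups fully, and WT_Con replicate 3 was the lowest control in each.

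The signalling kinases of the receptor lay lower too. Lck had 13.4, 13.1, 6.42 and 10.99 CPM against 2.39, 2.01, 1.65 and 2.91 CPM (-2.29 ± 0.30), and Zap70 had 6.05, 7.49, 3.73 and 4.85 CPM against 0.835, 0.425, 0.615 and 1.24 CPM (-2.81 ± 0.39). The surface protein gene Cd7, the NK receptor chain gene Klrd1 and the cytotoxic cell protease gene Ctsw had log2 differences of -2.91, -2.44 and -2.88. The adjusted p of these genes ran from 0.0575 to 0.0814, so none of the list passed over all genes in the 8 libraries. Without WT_Full replicate 4, 16 of 20 passed, all lower, against 5.06% of all genes, and DESeq2 on the 8 libraries called 16 (2.55% of all genes lower).

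The T and NK cell genes were also set against the control with the least neighbouring tissue. All 4 WT_Full libraries lay below WT_Con replicate 2, the control with the least Muc6 and Ctrb1, for 18 of 20 genes of the list, against 20.1% of all genes (22.8% lay above it). The 17 genes already below every control are among these, so the count is not a separate result. WT_Con replicate 2 was itself among the higher controls, at a mean log2 CPM of 2.88 against 1.95 in WT_Con replicate 3. With the Brunner gland covariate all 20 stayed negative and the median was -3.00, and without WT_Con replicate 3 it was -2.73, with 0 calls in either fit. In WT_Half the levels spanned the range between the groups, with a median of 8.36 CPM and a range of 1.99 to 19.0 for Cd8a, and 7.17 CPM (1.14 to 21.8) for Ccl5.

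Antigen presentation genes lay lower as well, but WT_Full replicate 4 followed the controls more closely. All 11 MHC class II genes had a negative log2 fold change (median -1.38). The groups of 7 did not overlap, against 3.78% of all genes lower. H2-Eb1, a class II beta chain, had 264, 247, 206 and 239 CPM in WT_Con and 24.4, 27.6, 67.2 and 140 CPM in WT_Full (-1.88 ± 0.51, adjusted p = 0.169), and H2-DMb1, which edits the bound peptide, had 36.6 to 53.5 CPM against 4.403, 4.52, 9.03 and 24.2 CPM (-2.18 ± 0.52, adjusted p = 0.150). WT_Full replicates 1 and 2 were lowest, and replicate 4 was several times above them. Of the class II list 9 passed without WT_Full replicate 4, all lower (5.06% of all genes did). All 16 MHC class I genes also had a negative log2 fold change (median -0.61), with no gene free of overlap. Markers of other immune and vessel cells also had mostly negative values, and their part in the class II result was not tested: 11 of 11 B and plasma cell genes (median -1.06, summed level 5220 to 11600 CPM in WT_Con and 1480 to 6770 CPM in WT_Full), 16 of 18 macrophage and dendritic cell genes (median -0.66, 173 to 324 CPM against 80.2 to 240 CPM) and 12 of 14 endothelial genes (median -0.48). Nlrc5, the class I transactivator, had 13.9, 9.63, 6.01 and 4.70 CPM in WT_Con and 1.94, 4.90, 3.69 and 1.91 CPM in WT_Full.

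Interferon-stimulated genes were divided. Of 29 tested, 22 had a negative log2 fold change with a median of -0.41. All WT_Full libraries were lower for 3 (Cxcl9, Iigp1 and Gbp2), against 3.78% of all genes. Cxcl9, an interferon-gamma induced chemokine that attracts T cells, had 6.78, 4.35, 3.16 and 2.53 CPM in WT_Con and 0.190, 0.347, 0.419 and 0.636 CPM in WT_Full (-3.38 ± 0.47, adjusted p = 0.0580). Iigp1, an interferon-gamma induced GTPase, had 7.41 to 21.6 CPM against 2.35 to 4.89 CPM, and Gbp4 had 4.79 to 9.99 CPM against 1.43 to 5.16 CPM. WT_Con replicate 1 was the highest library of the list, at a mean log2 CPM of 5.62 against 3.41 to 4.44 in the other 7 libraries.

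**Figure D3:**
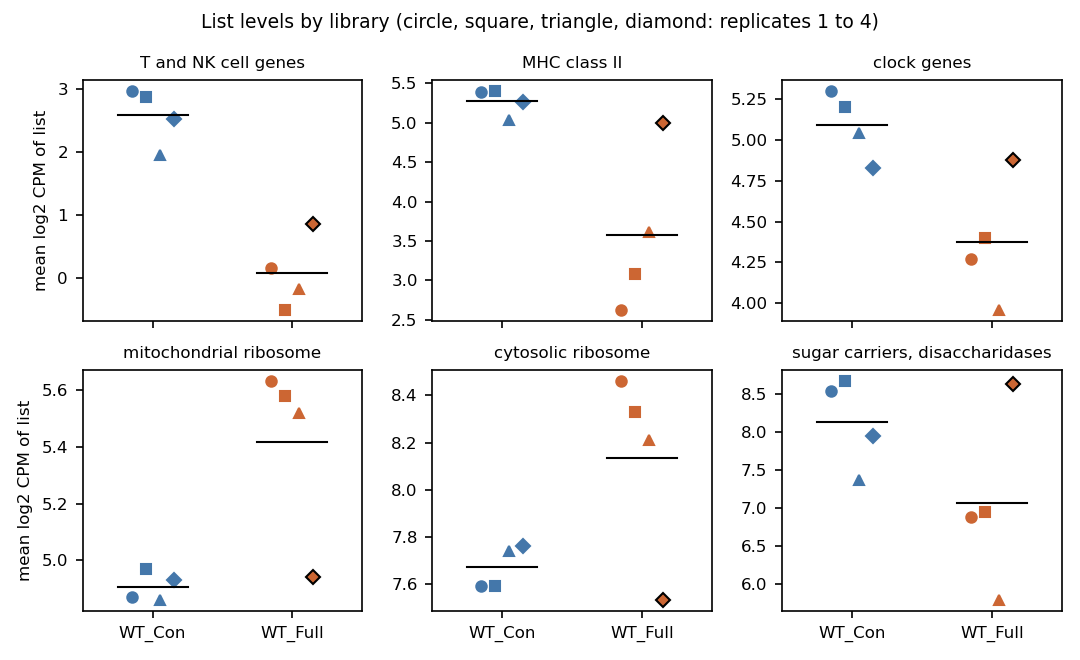
Mean log2 CPM over the tested genes of 6 lists in each library (circle, square, triangle and diamond for replicates 1 to 4; the bar is the group mean; the black edge marks WT_Full replicate 4). T and NK cell genes separate the groups completely, from 1.95 to 2.97 in WT_Con and from -0.50 to 0.86 in WT_Full, while WT_Full replicate 4 sits among or near the controls in the other 5 panels.

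Lifr and Gbe1 were the remaining non-immune genes among the 12 with the smallest p on the lower side, together with the clock gene Ciart. Lifr, the receptor for leukaemia inhibitory factor, had 12.5, 15.0, 15.7 and 15.0 CPM in WT_Con and 3.34, 3.51, 5.03 and 5.82 CPM in WT_Full (-1.71 ± 0.23, adjusted p = 0.0575). Gbe1, the glycogen branching enzyme, had 21.1, 25.8, 15.5 and 18.9 CPM against 7.36, 8.49, 8.70 and 8.97 CPM (-1.27 ± 0.19, adjusted p = 0.0756). In these genes all 4 WT_Full libraries were close to each other, replicate 4 included.

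Clock genes lay apart in both directions. Of 20 clock genes, 14 had a negative log2 fold change (median -0.90). Every WT_Full library lay below every control for 6 and above for 2, Arntl and Clock. The shares over all genes were 3.78% below and 4.22% above. Ciart, a repressor of CLOCK and BMAL1, had 13.8, 18.2, 12.5 and 10.5 CPM in WT_Con and 3.91, 4.67, 1.96 and 2.61 CPM in WT_Full (-2.06 ± 0.31, adjusted p = 0.0756). Per1, a core repressor, had 100, 119, 76.5 and 65.8 CPM against 42.2, 28.5, 38.1 and 52.9 CPM (-1.15 ± 0.24, adjusted p = 0.129). Nr1d1, which encodes the repressor REV-ERB alpha, had 91.4, 119, 102 and 151 CPM against 53.4, 65.5, 27.3 and 33.6 CPM (-1.36 ± 0.29, adjusted p = 0.129).

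Arntl, which encodes BMAL1, the activator that REV-ERB alpha represses, went the other way and was singled out after its values were seen. It had 5.21, 6.88, 4.72 and 6.55 CPM in WT_Con and 9.95, 7.72, 17.4 and 14.6 CPM in WT_Full (1.10 ± 0.28, adjusted p = 0.159). The output factor Dbp, also chosen after its values were seen, had 75.6 to 142 CPM against 6.04 to 53.1 CPM. No clock gene passed over all 8 libraries, and 8 of 20 passed without WT_Full replicate 4, all lower, against 5.06% of all genes. In WT_Half, Nr1d1 had 35.4 to 71.0 CPM and Arntl 7.79 to 13.4 CPM, close to WT_Full. The hour of collection is known only relative to the gavage, so a change in the clock and a difference in the hour cannot be told apart.

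The promoters of Ciart and Per1 are shown for the E-box that CLOCK and BMAL1 bind, CACGTG, which reads the same on both strands and was found in 7.15% of the 32851 promoter windows. RefSeq (GRCm38.p6) places the Ciart window at chr3:95882179-95882478 on the minus strand, with 3 E-boxes whose first bases lie at -116, -58 and -44. It gives Per1 more than 1 start, and the window at chr11:69098699-69098998 on the plus strand holds 1 E-box at -166. The window of Nr1d1 held no match. Capitals mark the E-boxes.
Ciart: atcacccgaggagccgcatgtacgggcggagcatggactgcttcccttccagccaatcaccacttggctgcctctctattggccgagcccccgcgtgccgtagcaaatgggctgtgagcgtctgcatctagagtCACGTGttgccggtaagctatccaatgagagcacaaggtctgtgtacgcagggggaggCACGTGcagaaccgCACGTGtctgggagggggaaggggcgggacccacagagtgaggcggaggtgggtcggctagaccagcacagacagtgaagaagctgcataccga
Per1: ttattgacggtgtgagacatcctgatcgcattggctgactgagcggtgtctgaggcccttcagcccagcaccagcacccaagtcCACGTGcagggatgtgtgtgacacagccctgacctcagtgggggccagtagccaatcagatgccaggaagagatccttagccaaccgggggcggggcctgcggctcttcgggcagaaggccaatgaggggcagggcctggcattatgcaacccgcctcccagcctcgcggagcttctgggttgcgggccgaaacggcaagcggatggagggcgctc

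Of the 24 genes with the smallest p, 17 had a promoter in the RefSeq table, and 2 of them (11.8%), Ciart and Zap70, held an E-box in at least 1 window, against 8.09% of the 27025 genes in the table. None held the heat shock element, the D-box TTANGTAA (2.72% of all genes) or the ATF4 and CHOP composite element TGATGNAA (4.51%), each searched on both strands.

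Sugar absorption, brush border and iron absorption genes mostly had negative log2 fold changes, with WT_Full replicate 4 nearer to the controls. Fat absorption genes depended on the fit: 14 of 23 were positive with all libraries (median 0.06). Without WT_Full replicate 4, 8 were positive and 15 negative (median -0.28). The same counts held with the Brunner gland covariate (median -0.37). Their mean log2 CPM in WT_Full replicates 1 to 3 (7.76 to 8.33) lay within the control range of 7.74 to 8.64. Of 16 genes for sugar carriers, disaccharidases and fructose enzymes, 14 had a negative log2 fold change (median -0.78). The groups of 1, Slc5a4a, did not overlap, against 3.78% of all genes lower. Slc5a4a, of the sodium-glucose carrier family, had 25.1, 33.7, 8.45 and 14.9 CPM in WT_Con and 1.40, 1.43, 0.280 and 4.35 CPM in WT_Full (-3.46 ± 0.73, adjusted p = 0.129). Slc2a5, the fructose carrier GLUT5, had 457, 498, 251.4 and 362 CPM against 85.9, 109, 30.6 and 410 CPM (-1.31 ± 0.65, adjusted p = 0.325). The glucose carrier gene Slc5a1, chosen after its values were seen, had 2995, 3644, 1761 and 2504 CPM against 863, 1150, 513 and 3283 CPM. For Slc2a5 and Slc5a1, WT_Full replicate 4 lay inside the control range and the other 3 lay below it. The list median was -1.42 without that library, with 6 calls lower, against 5.06% of all genes.

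Of 22 genes for brush border peptidases and structural proteins, 19 were negative (median -0.33), none with groups that did not overlap. Mme, the peptidase neprilysin, had 824, 661, 259 and 376 CPM in WT_Con and 113, 166, 35.3 and 506 CPM in WT_Full, and Cubn, the cobalamin receptor cubilin, had 2.17 to 14.2 CPM against 0.266, 0.772, 0.336 and 6.79 CPM. In the fit of the other 7 libraries, 5 passed as lower (Cubn, Mme, Xpnpep2, Ace and Pls1), against 5.06% of all genes.

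In iron absorption, 10 of 14 genes had a negative log2 fold change. Cybrd1, the duodenal ferric reductase, had 737, 423, 875 and 540 CPM in WT_Con and 150, 112, 264 and 403 CPM in WT_Full, with no overlap (-1.47 ± 0.40, adjusted p = 0.171). Slc40a1, the iron exporter ferroportin, had 1588, 1230, 873 and 1274 CPM against 320, 516, 298 and 886 CPM, and Epas1, the HIF-2 alpha subunit that drives both genes, had 205, 290, 206 and 218 CPM against 102, 92.9, 95.6 and 210 CPM. WT_Full replicate 4 again held the highest value of its group in all 3 genes. Without it 6 of 14 passed, all lower, against 5.06% of all genes.

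Not every enterocyte gene was lower. In retinoid handling, Isx, a homeobox repressor of carotenoid uptake, had 50.4, 62.8, 31.0 and 41.2 CPM in WT_Con and 115, 144, 97.1 and 78.4 CPM in WT_Full (1.24 ± 0.26, adjusted p = 0.129), and Rbp2, the retinol carrier of enterocytes, had 3810, 3506, 1536 and 1908 CPM against 4554, 7129, 3943 and 4808 CPM (0.93 ± 0.36, adjusted p = 0.238). These 2 were the list members with groups that did not overlap, against 4.22% of all genes higher. Of the list, 15 of 19 had a negative log2 fold change. Genes of intestinal identity also lay higher: 8 of 10 were positive, and Cdx1, Cdx2 and Gata4 had groups without overlap, against 4.22% of all genes. Cdx1, a caudal-type factor of the intestine, had 58.4, 77.2, 45.8 and 69.7 CPM against 154, 96.8, 109 and 111 CPM (0.92 ± 0.21, adjusted p = 0.141). Gata4, a factor of the proximal intestine, had 219 to 239 CPM against 265 to 313 CPM.

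Crypt genes were divided in the fit without a covariate. Olfm4, a marker of crypt stem and progenitor cells, had 119, 156, 91.6 and 141 CPM in WT_Con and 368, 284, 328 and 168 CPM in WT_Full (1.19 ± 0.27, adjusted p = 0.141). Rnf43, which removes Wnt receptors in stem cells, had 97.3, 96.6, 98.7 and 96.3 CPM against 55.2, 46.6, 32.8 and 80.1 CPM (-0.85 ± 0.23, adjusted p = 0.171). Neither gene overlapped between the groups, and they lay on opposite sides. They were the only such members of the 17 stem cell genes. These counts, 1 higher and 1 lower, are near the shares of 4.22% and 3.78% of all genes. Of 17 stem cell genes, 8 were positive (median -0.25). With the Brunner gland covariate 13 of the 17 were positive (median 0.44), with 0 calls. Of 29 cell cycle and DNA replication genes 28 were positive (median 0.59), all but Plk1, yet none separated the groups. Mcm4, of the replicative helicase, had 11.2 to 19.0 CPM against 35.1, 24.02, 35.2 and 13.8 CPM, so WT_Full replicate 4 was within the control range.

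Paneth cell genes had the largest positive list median, 2.10, of the lists named here, with 17 of 19 genes positive. The groups of 5 (Defa29, Defa22, Pla2g2a, Defa17 and Defa21) did not overlap, against 4.22% of all genes higher. Defa29, a defensin, had 0.313, 0.121, 0.136 and 0.411 CPM in WT_Con and 0.569, 5.64, 13.0 and 5.02 CPM in WT_Full (4.64 ± 0.88, adjusted p = 0.127). Pla2g2a, a secreted antibacterial phospholipase, had 0.452, 0.725, 0.565 and 1.82 CPM against 3.23, 4.25, 12.7 and 3.48 CPM (2.75 ± 0.62, adjusted p = 0.141). Here WT_Full replicate 1, not replicate 4, was the library nearest to the controls. Defensin genes are near-identical copies in a cluster, so reads may be split between them and single members are uncertain. Defa29 was barely counted in WT_Con and passed the filter through WT_Full. The share of positive members, the list median and the count without overlap are therefore only a description. Summed over the list, the levels overlapped, at 300 to 725 CPM in WT_Con and 365 to 2480 CPM in WT_Full. In the fit without WT_Full replicate 4, 6 of 19 passed, all higher, against 7.15% of all genes, and with the Brunner gland covariate the median was 1.45 with 0 calls.

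Among goblet cell genes 11 of 16 were negative. Spink4, a secreted goblet cell peptide, had 45.4, 67.7, 56.3 and 65.2 CPM in WT_Con and 140, 182, 152 and 91.0 CPM in WT_Full (1.28 ± 0.22, adjusted p = 0.103). Klk1, a kallikrein, had 136, 25.9, 335 and 237 CPM against 72.1, 24.3, 28.0 and 33.2 CPM, and Spdef, a secretory cell factor, 43.5, 16.6, 224 and 135 CPM against 43.5, 18.1, 23.5 and 11.7 CPM. The control libraries with high Klk1 and Spdef were those with high Muc6, and against WT_Con replicate 2 alone both had a positive log2 difference (0.62 for Klk1 and 0.56 for Spdef). With the Brunner gland covariate both stayed negative but nearer to 0, at -0.39 for Klk1 and -0.22 for Spdef, against -2.21 and -2.10 without it.

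**Figure D4:**
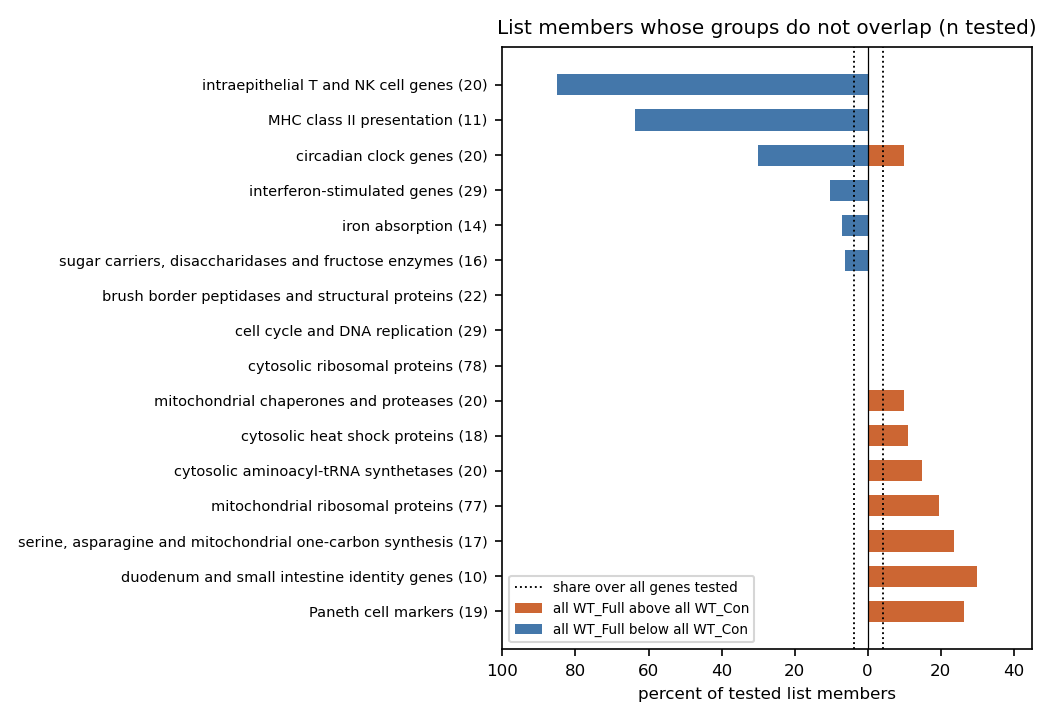
Percent of the tested members of 16 gene lists for which all WT_Full libraries lie above (orange, right) or below (blue, left) all WT_Con libraries; n tested is in brackets and dotted lines mark the shares over all genes tested, 4.22% and 3.78%. T and NK cell genes (17 of 20 lower) and MHC class II genes (7 of 11 lower) lie far beyond the dotted lines. Cell cycle, brush border and cytosolic ribosomal genes have no member without overlap.

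Ethanol is oxidised to acetaldehyde by alcohol dehydrogenases and cytochrome P450, and acetaldehyde to acetate by aldehyde dehydrogenases. Aldh2, the mitochondrial enzyme, had 491, 467, 456 and 502 CPM in WT_Con and 388, 404, 366 and 640 CPM in WT_Full. Its WT_Full values fell on either side of the controls, with replicate 4 alone above them. Of 25 alcohol and aldehyde metabolism genes, 22 had a negative log2 fold change (median -0.39). The groups of 1, Aldh6a1, did not overlap, which is near the share of 3.78% of all genes lower. Aldh6a1, a mitochondrial semialdehyde dehydrogenase of valine breakdown, had 29.99, 24.2, 34.7 and 31.5 CPM against 14.0, 19.6, 13.0 and 22.2 CPM (-0.80 ± 0.21, adjusted p = 0.159). Acss2, which activates acetate, had 28.6 to 43.4 CPM against 21.8 to 31.5 CPM. Leaving out WT_Full replicate 4 gave 7 calls among the 25, all lower, against 5.06% of all genes. Xenobiotic metabolism genes gave 22 of 30 negative (median -0.43) and 7 lower calls without that library, against the same 5.06%.

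Ly6g, best known as a surface marker of neutrophils, gave the largest log2 difference of its list. It had 0.0695, 0.181, 0.0452 and 0.911 CPM in WT_Con and 44.9, 39.8, 140 and 2.64 CPM in WT_Full (7.58 ± 1.33, adjusted p = 0.103), and 5.90 to 63.1 CPM in WT_Half. All 4 WT_Full libraries were above all controls, with WT_Full replicate 4 the lowest. Of 16 granulocyte genes listed, 10 were in the deposited table and 6 of these passed the filter on low counts. Ly6g was the only 1 of the 6 with groups that did not overlap, against 4.22% of all genes higher. Csf3r, the receptor for granulocyte colony-stimulating factor, had 1.04, 2.29, 0.904 and 1.73 CPM against 5.05, 1.51, 7.72 and 1.00 CPM, and the eosinophil gene Prg2 had 3.10 to 7.37 CPM against 0.811 to 3.78 CPM. Of the 6 tested, 5 were positive (median 1.31), and the groups overlapped for each but Ly6g. Ly6g was barely counted in WT_Con and passed the filter through WT_Full. The share of positive members and the median are therefore only a description. Whether neutrophils carry the Ly6g transcripts was not tested. Ly6g lies on chromosome 15, as does Gml of the same family.

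Among inflammatory mediators, Il1rn, the interleukin-1 receptor antagonist, had 0.626, 0.302, 2.31 and 1.79 CPM in WT_Con and 18.9, 15.4, 29.6 and 2.71 CPM in WT_Full (3.73 ± 0.80, adjusted p = 0.129). Ereg, a ligand of the epidermal growth factor receptor, had 1.32, 1.99, 3.12 and 2.50 CPM against 7.33, 6.87, 38.9 and 5.96 CPM (2.74 ± 0.67, adjusted p = 0.153). Lcn2, an iron-chelator-binding antimicrobial protein, had 2.46 to 9.30 CPM against 19.8, 19.4, 60.2 and 4.29 CPM. Il1rn and Ereg separated the groups, and Lcn2 overlapped through WT_Full replicate 4. Among 19 cytokine and adhesion genes, Il1rn was the 1 member higher without overlap, and 1 other member was lower without overlap. Ereg was the 1 such member of 7 ligands of its receptor, and the antimicrobial list that holds Lcn2 had 0 of 16. These counts stand against 4.22% of all genes higher and 3.78% lower. Of 19 cytokine and adhesion genes tested, 14 were positive with a median of 0.40, and none passed. Of 25 junction genes 16 were positive (median 0.19), and 3 had all WT_Full libraries higher (Ctnnd1, Cldn3 and Pkp2). The shares over all genes were 4.22% higher and 3.78% lower. The claudin gene Cldn1 was the 1 member with all WT_Full libraries lower, with 2.43, 0.936, 6.26 and 4.64 CPM against 0.683, 0.579, 0.224 and 0.301 CPM (-3.00 ± 0.63, adjusted p = 0.129).

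WT_Full replicate 4 was also set beside its group over all genes called without it. That fit called 2069 genes, of which 2052 were also tested with all 8 libraries. For 1045 of the 2052 (50.9%) the value of WT_Full replicate 4 lay within the control range, its median share of the change of the other 3 libraries was 0.03, and 1 gene, Atf5, was called in both fits. Since those genes were selected without this library, its position over them is a description.

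WT_Full was also compared with WT_Half; this comparison shares the WT_Full libraries with the one above. With edgeR, 0 of 16967 genes were higher (0%) and 0 lower (0%), with 780 at an unadjusted p under 0.05, and there were 0 calls without WT_Full replicate 4 as well. DESeq2 called 5 higher and 15 lower, and limma-voom 0 and 2. For the genes with the smallest p, WT_Half covered a wide range: Psat1 had 12.8 to 60.4 CPM with a median of 35.0, Guca2a 20.1 to 88.3 CPM (35.2), Lifr 4.74 to 10.6 CPM (8.68), and Cxcl9 0.424 to 2.16 CPM (0.842). For Lifr and Cxcl9 the WT_Half median lay between the groups, and for Psat1 and Guca2a it was inside the WT_Full range.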

How the data were processed

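The polyA RNA of 25 duodenum samples was sequenced, and the authors deposited 1 table of raw counts per gene; the submitters' processing notes name FastQC, Trimmomatic, HISAT2, SAMtools, featureCounts and DESeq2 and the build GRCm38, without versions. The strand setting and the treatment of reads with several matches are not stated. The table held 17220 lines and 17007 identifiers, after 213 repeats were merged.

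Here, 4 WT_Full and 4 WT_Con libraries were fitted with edgeR 4.0.16 (R 4.3.3; TMM scaling, filterByExpr, quasi-likelihood test, Benjamini-Hochberg adjustment over all genes tested, threshold 0.05), which is the source of each log2 fold change, standard error (SE) and adjusted p given unless another tool is named. DESeq2 1.42.0 and limma 3.58.1 (voom) were alternatives. CPM values were scaled by TMM over all 25 libraries, and list means use log2 CPM with a prior count of 2. Genes were named by smallest p, 12 on each side (mean log2 CPM 1 or higher), and 3 for each of 59 gene lists, beside Muc6, Ctrb1 and Aldh2. Arntl, Dbp, Slc5a1, Hsp90ab1, Psph, Epcam, Vil1 and Gkn1 were added after their values were seen, as were members named only because their groups did not overlap or because they passed an alternative fit. The comparison, the members and the gene lists were chosen with earlier results of these data known. Totals of 24.6 to 44.8 M counts per library limit precision least for abundant genes. The code was tested on simulated data.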

Additional observations from a re-analysis of the deposited data

Results flagged for a closer look

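In each group of 4 libraries the highest or lowest value was set against the rest, and 15 of 228 groups (6.58%) had a value whose gap exceeded Dixon's critical value; chance flags about 1 in 20 groups. Libraries with neighbouring tissue gave Gkn2 at 6722 CPM and Gkn1 at 5740 CPM in WT_Con replicate 3, and Muc6 at 2631 CPM in WT_Full replicate 1. WT_Full replicate 4 stood above its group for Cubn (6.79 CPM), Epas1 (210 CPM), Aldh2 (640 CPM) and Vil1 (2607 CPM). WT_Full replicate 3 stood above its group for Pla2g2a (12.7 CPM) and Ereg (38.9 CPM), and WT_Full replicate 2 stood below its group for Gata4 (265 CPM). Among controls, replicate 3 was high for Hsp90aa1 (277 CPM) and Psph (6.37 CPM), replicate 2 for Hnf4a (786 CPM) and Epas1 (290 CPM), and replicate 4 for Ly6g (0.911 CPM).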

How the results depend on the processing

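The number of calls for WT_Full against WT_Con depended on the library set and the tool. It was 1 higher and 0 lower with the relative log expression scaling or with no filter, 5 and 11 with library totals and no scaling factor, 505 and 431 with DESeq2, 811 and 599 with limma-voom and sample weights, 683 and 606 with edgeR on all 25 libraries, 1060 and 1031 with DESeq2 on all 25, and 0 and 0 with the Brunner gland covariate or with WT_Con replicate 2 as the 1 control (which is assumed to vary like the other libraries). Leaving out 1 library gave 0 to 1211 higher and 0 to 858 lower, the upper ends without WT_Full replicate 4; without WT_Con replicate 2 it gave 1 and 11. A fit with the replicate block gave 0 higher and 0 lower, with 2190 genes at an unadjusted p under 0.05 and an adjusted p of 0.136 for Atf5. Same-numbered WT_Con and WT_Full libraries had deviations correlated at -0.16, -0.174, 0.106 and -0.0653. For WT_Half and WT_Full the values were 0.401, -0.0354, -0.0923 and -0.0824. The labels do not say whether the numbers pair the samples. These values cannot decide it, since differences in tissue content also enter the deviations. Over all alternatives the adjusted p of Atf5 ran from 7.55e-26 to 0.845. For WT_Full against WT_Half, DESeq2 gave 5 higher and 15 lower, limma-voom 0 and 2, and leaving out 1 library 0 to 2 higher (2 without WT_Half replicate 6) and 0 lower. Genes without overlap numbered 862 to 2310 higher and 762 to 2257 lower when 1 library was left out (1132 lower without WT_Con replicate 2; 1116 and 991 without WT_Con replicate 3). Of 2047 values for 114 named genes, 1585 kept their side of the threshold, 445 passed it, 8 (all Atf5) no longer did, and 9 changed sign: with WT_Con replicate 2 as the 1 control, Klk1 (0.617), Spdef (0.562), Muc6 (5.82), Ctrb1 (0.566), Gkn2 (7.82) and Gkn1 (4.75), and with the Brunner gland covariate Muc6 (0.208), Gkn2 (0.14) and Gkn1 (1.04). The cause of these changes was not tested.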

Other observations

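Several other genes separated the groups with edgeR's quasi-likelihood test short of the threshold. Agpat2, which makes phosphatidic acid for lipid synthesis, had 182, 204, 181 and 198 CPM in WT_Con and 294, 301, 395 and 410 CPM in WT_Full (log2 fold change 0.88 ± 0.16, adjusted p = 0.103). Acot1, a cytosolic acyl-CoA thioesterase, had 3.86 to 7.58 CPM against 11.01 to 26.1 CPM, while 12 of 26 PPAR alpha target genes were positive. Hsd11b2, which inactivates glucocorticoids, had 3.20 to 6.11 CPM against 9.46 to 16.1 CPM (1.38 ± 0.27, adjusted p = 0.127). Pgk1, of glycolysis, had 345 to 471 CPM against 531 to 737 CPM, and 19 of 25 glycolysis and hypoxia genes were positive (median 0.27). In all 4 genes WT_Full replicate 4 lay above every control. Members higher without overlap numbered 1 of 23 for fat absorption, 1 of 26 for PPAR alpha targets and 3 of 25 for glycolysis and hypoxia. Of 16 glucocorticoid-responsive genes, 2 lay higher and 2 lower without overlap. Of all genes, 4.22% lay higher and 3.78% lower without overlap.

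Gut nerve and glia genes were positive for 10 of 12 members (median 0.47). Gfap, a filament of glia, had 2.26, 1.09, 1.65 and 2.65 CPM in WT_Con and 6.45, 20.9, 11.7 and 2.08 CPM in WT_Full, and Ret, a receptor of enteric neurons, had 4.41 to 11.9 CPM against 13.0 to 31.1 CPM. Smooth muscle genes were positive for 13 of 14 members (median 0.36), with WT_Full replicate 2 the highest library for Gfap; the part of muscle wall content was not tested. Gpx2, the glutathione peroxidase of the gut epithelium, had 50.2, 76.8, 139 and 112 CPM against 311, 367, 462 and 118 CPM (1.75 ± 0.43, adjusted p = 0.156), within 25 NRF2 target genes of which 19 were positive.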
